A study of Rattus norvegicus with 3 samples.

Results

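Control platelets are the platelets of F344 rats, an inbred strain, that were isolated from blood and not loaded with a drug. Their RNA was read on 1 of the 3 arrays of the study, and the other arrays, of platelets loaded with sorafenib or lenvatinib, are not used here. Per the labels, each of 5 normal rats gave 3 mL of blood, a spin at 200 g lasting 7 minutes separated the platelets, and the suspensions of the 5 rats were pooled. The labels do not mention a step that removed other blood cells after that spin. The control array was described through 15037 genes, those with 1 gene symbol in the platform annotation, each by its highest feature. They come from 15049 of the 23188 features of the array. A feature is the set of probes that stands for 1 transcript.

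Platelets are anucleate cells that megakaryocytes shed from the bone marrow into the blood. Having no nucleus, they transcribe no nuclear genes, and most of their RNA comes from the parent cell. They seal wounds by sticking to exposed matrix, by releasing stored granules and by contracting, and they are known for receptors, granule proteins and a contractile skeleton that serve these steps.

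Values are log2 signals as deposited, so a step of 1 is a doubling of the processed signal. How that signal relates to the brightness that was scanned is not known here. With 1 pooled array there is no replicate, no error and no test, and every count below describes this array alone. Features differ in how well their probes bind, and no value per transcript length can be had from these files. The order of genes is therefore an order of signals, and small gaps between genes carry no information about amounts. In pooled RNA, fewer cells of a type and less RNA per cell cannot be told apart.

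The signals ran from 2.24 to a ceiling of 19.93, which to 2 decimals equals log2 of 1000000. The median gene read 4.25, and the middle part of the genes, between the quartiles, read 3.50 to 5.68. At the ceiling were 15 genes (0.0998%), and 230 genes (1.53%) lay from 16 up to below it. A further 460 genes (3.06%) read from 12 to 16 and 1104 (7.34%) from 8 to 12, which left 13228 (88%) under 8. The named genes at 8 and up thus made 12% of the total. The plot of signals by gene and by control feature shows a single low peak with a long tail toward the ceiling.

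Background was taken from the 1153 features that the series value table names as negative controls. Their median was 4.10 and their 95th percentile 7.70, the level called background from here on. At or above it were 1961 genes, or 13%, of which 152 read under 8. The negative control features also had a tail of their own. Of them 14 read 12 or more and 6 read 16 or more, and the highest read 18.97. The 23 features of background probes sorted by GC content read from 2.54 to 5.22 and had no such tail. A gene above background thus had a signal that 5.03% of negative control features also reached, and 0.520% of those features read 16 or more. With the 99th percentile of these features, 12.82, as the level, 586 genes lay at or above it, and the counts of 20 of the 34 gene lists described here changed by more than 1.5 times. Genes of olfactory receptors, which sense odours in the nose, gave a second view of unspecific signal. The 1057 measured had a median of 3.65, and the highest of them read 6.77, so that 0 lay at or above background. The 98 vomeronasal receptor genes likewise had 0 members there, with a highest signal of 6.03.

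**Figure D1:**
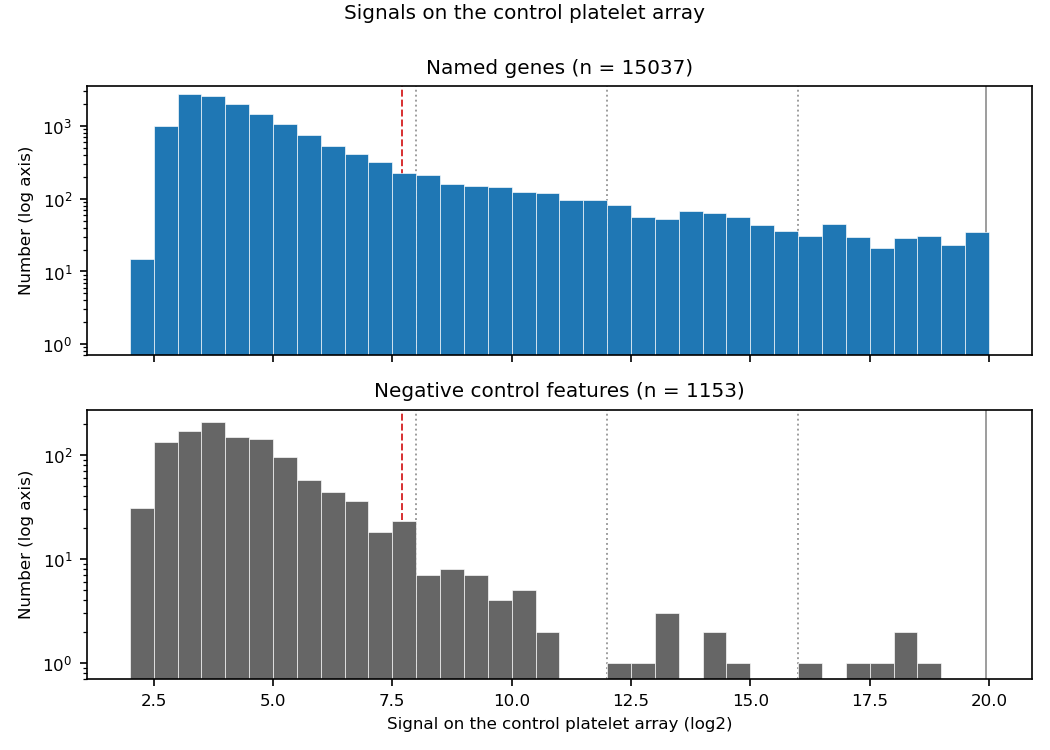
Number of named genes (upper panel, n = 15037) and of negative control features (lower panel, n = 1153) by log2 signal on the control platelet array, in bins of equal width on a log count axis. Dotted lines mark 8, 12 and 16, the grey line the ceiling of 19.93 and the red dashed line the background level of 7.70. Both panels peak at low signals, and 14 negative control features read 12 or more.

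The 15 genes at the ceiling have no order among themselves. If the ceiling is a cap, which was not tested, 19.93 is a lower bound of their signal. Among them were a gene of platelet granules and a gene of the platelet surface. Pf4 codes for platelet factor 4, a chemokine of alpha granules, and Clec1b for the receptor of podoplanin. Nrgn, of neither group, codes for neurogranin, a calmodulin-binding protein. Genes of the contractile skeleton at the ceiling were Actb, beta-actin, Myl9, a myosin regulatory light chain, Tmsb4x, thymosin beta 4, which holds actin monomers, and Pdlim1, an adaptor on actin fibres. Secreted products were Npy, the vasoconstrictor neuropeptide Y, and Pla2g2a, a secreted phospholipase A2. Fth1 and Ftl1, the heavy and light chains of the iron store ferritin, and the globin gene Hba-a1 were at the ceiling too, as was B2m, the light chain of class I histocompatibility molecules. The others were Nt5c3a, a pyrimidine nucleotidase, and Stmp1, a small mitochondrial membrane protein. Just outside the ceiling were the ribosomal protein gene Rps29 at 19.928, the endosomal GTPase gene Rab7a at 19.897 and Cst3, cystatin C, at 19.848. Rps29 rounds to the same 2 decimals as the ceiling, so that the edge of this band is thin.

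The promoters of 3 of these top genes are printed to show the sequence before genes that mark the platelet surface and the red cell. Clec1b and Gp9, the gene of glycoprotein IX of the von Willebrand factor receptor, read 19.93 and 19.15, and Hba-a1 read 19.93. Each run is 300 bases from RefSeq on build GRCr8, 250 before the annotated gene start and 50 after it, given 5′ to 3′ on the strand of the gene. Capitals mark GATAA, the core of sites bound by GATA factors, and AGGAAG, a core of sites bound by ETS factors, on either strand, with overlapping matches counted. Clec1b lies at chr4:164533859-164534158 on the plus strand, Gp9 at chr4:121792592-121792891 on the plus strand and Hba-a1 at chr10:15842531-15842830 on the minus strand.
Clec1b: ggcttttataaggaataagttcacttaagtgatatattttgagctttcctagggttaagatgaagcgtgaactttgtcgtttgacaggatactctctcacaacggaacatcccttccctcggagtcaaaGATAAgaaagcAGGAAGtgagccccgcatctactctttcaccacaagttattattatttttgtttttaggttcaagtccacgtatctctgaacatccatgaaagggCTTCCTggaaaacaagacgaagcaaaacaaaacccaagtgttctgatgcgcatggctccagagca
Gp9: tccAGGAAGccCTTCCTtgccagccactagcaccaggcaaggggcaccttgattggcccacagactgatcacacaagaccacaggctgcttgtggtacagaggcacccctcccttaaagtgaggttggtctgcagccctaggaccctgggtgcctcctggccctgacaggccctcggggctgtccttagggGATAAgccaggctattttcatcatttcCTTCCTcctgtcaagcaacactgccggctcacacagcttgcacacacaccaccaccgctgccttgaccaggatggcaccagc
Hba-a1: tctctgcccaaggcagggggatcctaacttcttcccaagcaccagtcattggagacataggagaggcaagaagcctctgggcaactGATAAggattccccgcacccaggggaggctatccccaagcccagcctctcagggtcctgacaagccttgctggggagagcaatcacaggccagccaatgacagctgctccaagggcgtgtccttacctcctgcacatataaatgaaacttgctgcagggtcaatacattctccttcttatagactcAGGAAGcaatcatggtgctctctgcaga

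These 3 promoters each hold GATAA 1 time, and AGGAAG 2 times in Clec1b, 3 times in Gp9 and 1 time in Hba-a1. A promoter was matched for 12435 of the 15037 genes and for 195 of the 245 at 16 and up. GATAA was found in 20.5% of these 195, against 21.4% of the promoters of all named genes and 26.1% of all 27457 promoters in the RefSeq table, all of the same length. AGGAAG was found in 42.1% of the 195, against 33.7% and 34.3%. By list, GATAA was found in 6 of 12 promoters of adhesion receptors, 6 of 24 of granule proteins, 8 of 20 of red-cell genes, 2 of 12 of megakaryocyte transcription factors and 16 of 65 of cytosolic ribosomal proteins. AGGAAG was found in 7, 11, 10, 4 and 40 of these promoters in the same order. Olfactory receptor promoters held GATAA in 54.3% of 901, at a median GC content of 35.7%, against 62.0% for genes at 16 and up. A match is a string of letters in a window and no site.

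Below the ceiling the highest signals again included genes of platelet function, beside genes of every cell. Clu, clusterin, an alpha granule chaperone, read 19.84. Rac1 and Rap1b, small GTPases of the skeleton and of integrin activation, each read 19.82. F2rl2, a thrombin receptor that mouse platelets use, read 19.77, and Srgn, serglycin, the proteoglycan that packs granule proteins, 19.72. Fcer1g, the signalling chain of the collagen receptor, read 19.64 and Treml1, a receptor stored in alpha granules, 19.54. Cd9, a tetraspanin of the platelet surface, read 19.39 and Rgs18, a brake on G protein signals in platelets, 19.35. Genes with broader roles in this range were Gapdh, of glycolysis, at 19.73, Eef1a1, of protein synthesis, at 19.40, and Ppif, the mitochondrial cyclophilin, at 19.80. Hpse, the heparan sulphate-cutting enzyme heparanase, read 19.64 and Slc40a1, the iron exporter ferroportin, 19.21. Hist1h2bq, a histone gene, read 19.39. The 40 highest genes below the ceiling spanned 19.05, the signal of Sod2, to 19.93.

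**Figure D2:**
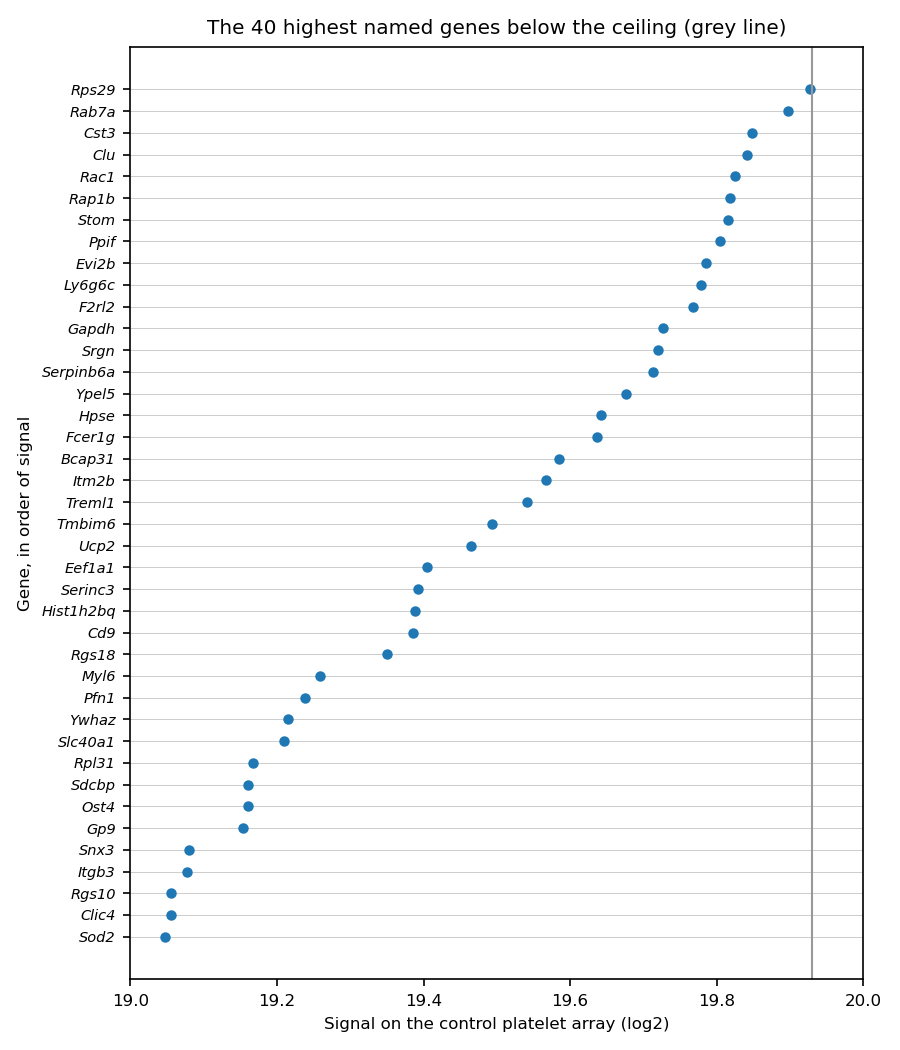
Log2 signal of the 40 highest named genes below the ceiling on the control platelet array, 1 point per gene, in order of signal. The signal axis starts at 19 and the grey line marks the ceiling of 19.93. The genes run from Rps29, 19.93 to 2 decimals, to Sod2 at 19.05.

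Platelet and megakaryocyte genes lay above background in most cases. Over 9 lists, 150 of 218 distinct measured genes lay at or above background, or 68.8%, against 13% of all named genes. Their median was 11.82, against 4.25, and 71 of them read 16 or more. These lists were chosen with earlier results of these data known, and they also hold genes used by most cells. The actin and myosin list gave 42 of the 150. Lists of shared cell functions ran from 3.03%, for mitochondrial ribosomal proteins, to 86.8%, for cytosolic ribosomal proteins, and red-cell genes had 67.9%. The 13% includes 1057 olfactory receptor genes, of which 0 lay there. Adhesion receptors had a median of 17.49 and a mean of 15.35, with 15 of 18 measured members at or above background. Gp9, at 19.15, Gp1ba, at 17.52, and Gp5, at 16.74, code for subunits of the receptor that catches von Willebrand factor. Itgb3, the beta chain of the fibrinogen receptor, read 19.08, Itgb1, of collagen and laminin receptors, 18.65, and Itga6, of the laminin receptor, 18.46. Members below background were Pear1 at 6.69, Selp, P-selectin, at 6.54 and Jam3 at 5.31. P-selectin is a defining platelet protein, and a low reading of its feature cannot be told apart from little transcript. The same holds for the other genes below background that are named here. For Itga2b, Gp1bb, Gp6, Itga2, Cd36 and Mpig6b no named feature was found, and they are not analysed here.

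Granule proteins and growth factors were split. Of 31 measured, 15 lay at or above background, 12 of them at 12 and up. The list also holds Nrgn, at the ceiling, which codes for a calmodulin-binding protein. The list median was 6.88, below background, and the mean 10.11. The chemokine genes Ppbp and Ccl5 read 18.78 and 15.44. Thbs1, thrombospondin, read 18.63, F13a1, a clotting transglutaminase, 18.16, and Angpt1, a vessel-stabilising factor, 17.45. Tgfb1, a growth factor of alpha granules, read 16.52, and Vwf, von Willebrand factor, 12.63. At the low end were the fibrinogen chain genes, with Fgb at 4.95, Fga at 3.70 and Fgg at 3.00. Fibrinogen is made in liver, and platelets are known to take it up from plasma. Growth factor genes Pdgfa at 4.93, Pdgfb at 4.86 and Vegfa at 3.85 were also below background, as was Sparc at 5.41.

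Receptors for soluble agonists and their G proteins had a median of 14.03, and 17 of 23 members were at or above background. P2ry12, the ADP receptor that antiplatelet drugs block, read 17.90, P2rx1, an ATP-gated channel, 16.60, and P2ry1, another ADP receptor, 11.28. Among thrombin receptors F2rl2 read 19.77 and F2rl3 9.05, while F2r read 7.64, just below background. F2r is the main thrombin receptor of human platelets, and mouse platelets do not rely on it. G protein subunits ran from Gnas at 18.13, Gnaz at 17.64 and Gnai2 at 16.72 to Gnaq at 14.03 and Gna13 at 7.47. Of the brakes on G proteins, Rgs18 and Rgs10 read 19.35 and 19.06. Low members were Adora2a, Htr2a, Adra2a and Ptger3, which read 3.33 to 5.75.

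In the signalling below these receptors, 21 of 31 members lay at or above background, with a median of 9.39. The adaptor gene Lcp2 read 18.02, the kinase gene Prkcq 17.29, the Rap1 inhibitor gene Rasa3 17.02 and the kinase gene Lyn 16.95. Stim1, the calcium sensor of the stores, read 16.05 and Orai1, the calcium channel it opens, 14.79. Syk, the kinase below ITAM receptors, read 11.63. Plcg2 at 7.14, Lat at 6.72, Itpr1 at 6.72 and Plcb2 at 5.56, which act in the same chains, were below background.

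Of the genes of the actin and myosin machinery 42 of 44 lay at or above background, with a median of 16.21. Beside the members at the ceiling, Myl6, a myosin light chain, read 19.26, Pfn1, profilin, 19.24, and Myh9, the heavy chain of platelet myosin, 18.13. Flna, filamin A, read 16.06 and Tln1, talin, which switches integrins on, 13.37. The members below background, Rac2 at 7.59 and Arpc5 at 7.55, lay close to it. Tubulin genes were at or above background in 9 of 14 cases. Tubb2a read 18.15 and Tuba4a, the alpha-tubulin that platelets rely on, 15.78, while Tubb6 and Tubb3 read 5.85 and 4.27. Tubb1, the main beta-tubulin of platelets, had no named feature. Tpm3, a tropomyosin, showed how far a gene can depend on its feature: its 3 features read from 6.74 to 17.43. Of the 10 genes with several features, Oaz2, at 10.94 and 12.36, and Tpm2, at 7.16 and 8.52, also crossed a band edge, and Oaz2 and Tpm2 were named after their values were seen.

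**Figure D3:**
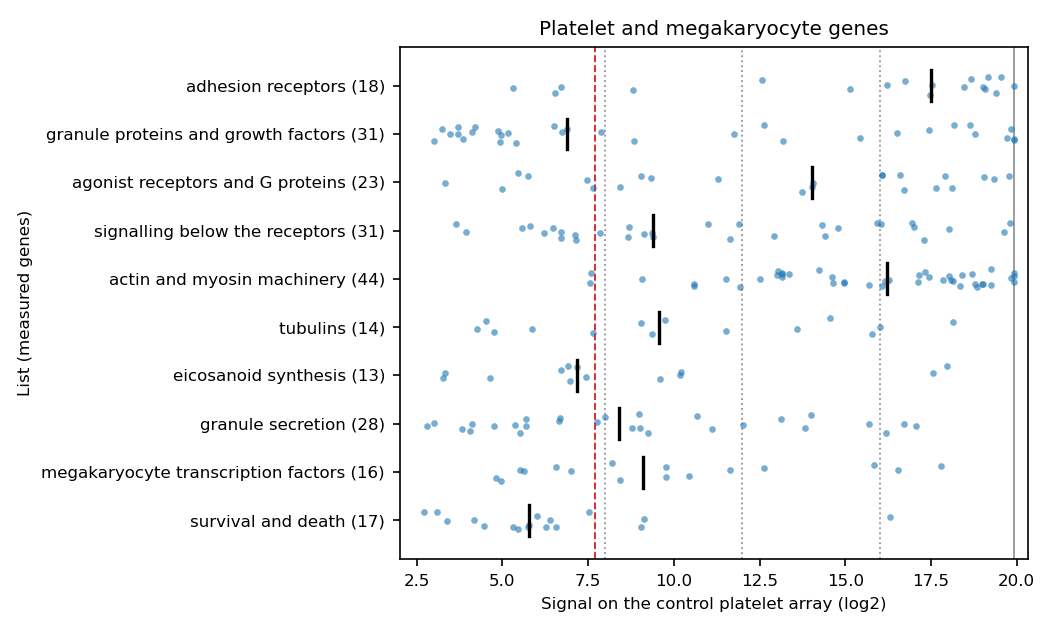
Log2 signal of each measured member of 9 platelet and megakaryocyte lists and of the survival and death list on the control platelet array, 1 point per gene, shifted up or down at random to part them. Black bars are list medians, dotted lines mark 8, 12 and 16, the grey line the ceiling and the red dashed line the background level of 7.70. The actin and myosin list has 42 of 44 members at or above background, and the granule list spreads from 3.00 to the ceiling.

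Eicosanoid enzymes and secretion genes were mixed. Ptgs1, the cyclooxygenase that aspirin blocks in platelets, read 17.98 and Alox12, the platelet lipoxygenase, 17.56. Tbxas1, thromboxane synthase, read 10.22. Ptgs2 and Alox5, the inducible cyclooxygenase and the lipoxygenase of leukocytes, read 3.28 and 3.33. In all 5 of 13 eicosanoid genes, or 38.5%, lay at or above background, against 13% of all named genes. Of 28 secretion genes 16 did so, or 57.1%. Stx11, the syntaxin of platelet release, read 17.07 and Rab27b, a GTPase of dense granules, 16.72, while Vamp8, a vesicle SNARE of platelets, read 3.83.

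Genes of transcription factors known from megakaryocytes lay at or above background in 10 of 16 cases, with a median of 9.10. At the 99th percentile level of 12.82, 3 of the 16 did. Nfe2, which drives platelet release, read 17.78, Gfi1b 16.54, Tal1 15.85 and Runx1 11.65. Gata1 read 9.78 and Gata2, of earlier progenitors, 5.52. Nfe2, Gfi1b, Tal1 and Gata1 are also known from the red-cell line, and whether these signals came from platelets or from red-cell precursors was not tested. Of 17 genes of survival and death 3 lay at or above background, or 17.6%, near the 13% of all named genes. They were Bcl2l1, which sets platelet lifespan, at 16.30, Mcl1 at 9.14 and Xiap at 9.03. Bak1, the counterpart of Bcl2l1 in platelets, read 5.75, and Bax read 4.16. All 18 measured genes of cell division were below background, at 6.29 or less.

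Red-cell genes carried signals up to the ceiling. Of 28 measured, 19 lay at or above background, with a median of 8.94. Hbb read 18.63, Hbb-bs 11.87 and Hba-a3 10.22. Globin genes have near-identical copies, and the signal of a feature can hold that of its neighbours, so single values are uncertain. Rhag, a red-cell membrane protein, read 16.82, Bnip3l, which clears mitochondria from maturing red cells, 16.50, and Alas2, the first enzyme of heme synthesis in red cells, 12.09. Slc4a1, the anion exchanger of red cells, was just above background at 7.93. Ahsp, the chaperone of alpha-globin, read 4.75, Epb42, of the red-cell skeleton, 4.11, and Klf1, a red-cell transcription factor, 3.16. The ferritin genes of this list are used by most cells. How much of these signals came from red cells or their precursors in the preparation was not tested.

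Markers of white blood cells and vessel cells lay at or above background in 11 of 118 distinct measured genes over 8 lists. This share, 9.32%, was near the 13% of all named genes, and the median of 4.39 was near their 4.25. The lower level set by the background probes sorted by GC content, 5.22, an alternative chosen after seeing the data, put 34 of these 118 and 188 of the 218 platelet list genes at or above it, beside 4604 of all 15037 named genes. No member of the T cell, natural killer cell or mast cell, basophil and eosinophil lists reached the background of 7.70, among 18, 12 and 15 measured. The T cell receptor chains Cd3d, Cd3e and Cd3g read 3.66 to 4.16. Every T cell gene read 5.65 or less, every natural killer gene 6.38 or less and every gene of the mast cell list 5.02 or less. Of 18 neutrophil genes S100a9, a calcium-binding protein that neutrophils hold in large amounts, was the member above background, at 8.37. Its partner S100a8 read 5.93, and the granule and receptor genes Elane, Ltf, Csf3r and Cxcr2 read 3.29 to 4.15. Kdr, a receptor for vascular growth factor, at 8.98, was the member of 13 endothelial genes above background, while Cdh5, the cadherin of endothelium, read 4.53 and Tek 4.45.

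Lyz2, lysozyme of monocytes and neutrophils, stood apart among monocyte genes at 15.13, and Ccr2, a chemokine receptor, read 8.03. The other 17 of 19 measured monocyte and macrophage genes were below background, with Csf1r, the receptor that defines the lineage, at 5.47, Cd68 at 4.79 and Cd14 at 2.89. The 2 above background made 10.5% of the list, near the 13% of all named genes. Of 13 B cell genes Cr2, a complement receptor, read 10.95 and Bank1, a scaffold of B cells, 9.02. They were the 2 members at or above background, or 15.4%, again near 13%. The defining genes Cd79b, of the B cell receptor, and Pax5, the lineage factor, read 5.04 and 4.75, and Cd74 read 7.04. Genes shared by leukocytes were above background in 5 of 10 cases. Cd48, an adhesion protein of blood cells, read 17.52, Itgb2, the integrin chain of leukocytes, 14.16, Arhgdib, a GTPase inhibitor, 12.64, Cd53, a tetraspanin, 8.41 and Laptm5, of lysosomes, 8.29. Ptprc, the common leukocyte antigen, read 7.63, just below background, and Itgal, which pairs with Itgb2, 5.78. Whether these signals came from platelets or from a few white cells was not tested. All 17 liver genes were below background, with albumin, Alb, at 3.53.

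**Figure D4:**
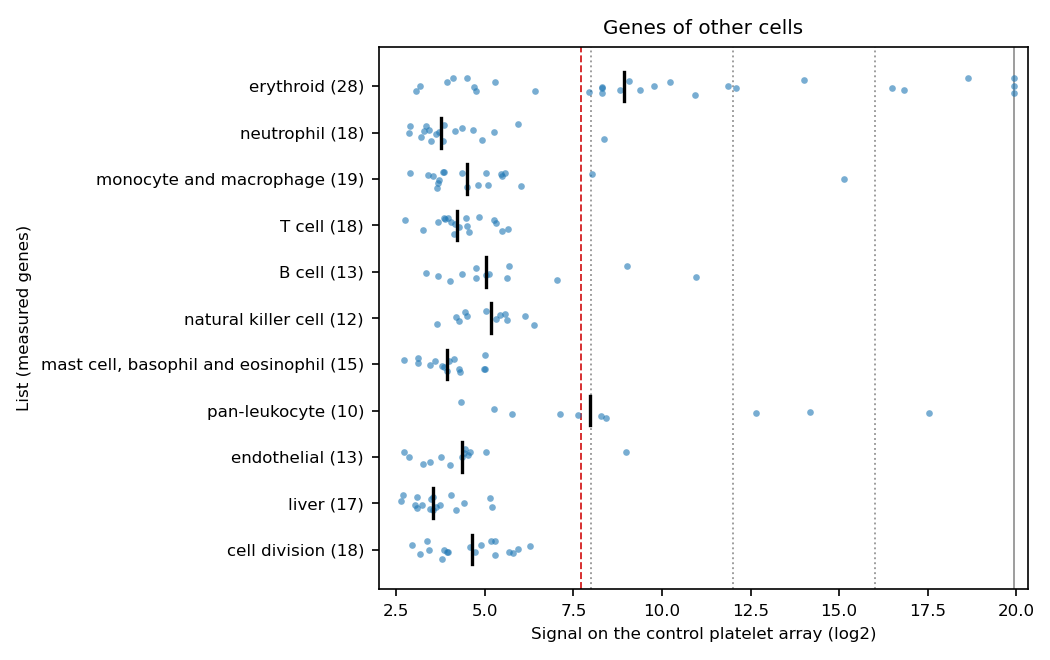
Log2 signal of each measured member of the lists for red cells, white blood cells, endothelium, liver and cell division on the control platelet array, 1 point per gene, shifted up or down at random. Black bars are list medians, dotted lines mark 8, 12 and 16, the grey line the ceiling and the red dashed line the background level of 7.70. Red-cell genes have 19 of 28 members at or above background, and T cell, natural killer, liver and cell division genes have 0.

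Genes of shared cell functions differed by group, and their counts stand beside the 13% of all named genes at or above background. Of 76 genes of cytosolic ribosomal proteins and their paralogs, 66 lay at or above background, with a median of 11.22 and most, 42, between 8 and 12. Rps29 at 19.93 and Rpl31 at 19.17 were the highest. Because copies of nearly the same sequence exist elsewhere in the genome, single values are uncertain. Of 66 genes of mitochondrial ribosomal proteins 2 did so, Mrps18c at 17.20 and Mrpl52 at 9.79, and the median was 4.28, close to that of all genes. Genes of the respiratory chain and ATP synthase, assembly factors included, lay between, with 37 of 88 at or above background and a median of 6.81. Atp5if1, the inhibitor of ATP synthase, read 17.67, Ndufa1 17.36 and Cox5a 16.94, while Sdha, a core subunit of complex II, and Uqcrc1, of complex III, read 4.19 and 3.03.

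Glycolysis genes had 10 of 17 members at or above background. Beside Gapdh, Pkm read 18.43, Ldha 17.05 and Aldoa 16.54, and Slc2a3, the neuronal and platelet glucose transporter gene, 11.23. The transporter gene Slc2a1 was below background at 6.13. Of 14-3-3 adaptor genes Ywhaz read 19.21, Ywhah 19.00 and Ywhag 5.48, with 5 of 6 at or above background. Of 55 Rab genes, which code for traffic GTPases and some relatives, 23 did so, from Rab7a at 19.90 to Rab13 at 7.80 and Rab25 at 7.72. Antioxidant genes had 8 of 16, with the mitochondrial dismutase gene Sod2 at 19.05, while Sod1, the cytosolic one, was below background at 6.96. Of 12 class I antigen presentation genes 7 lay at or above background, B2m among them, while the immunoproteasome genes Psmb8, Psmb9 and Psmb10 read 4.17 to 4.80. Proteasome subunits had 8 of 37 members there, or 21.6%, beside 13% of all named genes. None read 12 or more, and Psma7 was highest at 10.64. Of 21 histone genes under current names 3 lay at or above background, or 14.3%, near the 13% of all named genes, with H2ax at 11.12. A further 11 histone genes under older names, added after seeing the data, had 6 members there and signals from 3.09 to 19.39, the reading of Hist1h2bq. Of 39 keratin genes, known from epithelia, 0 lay at or above background.

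**Figure D5:**
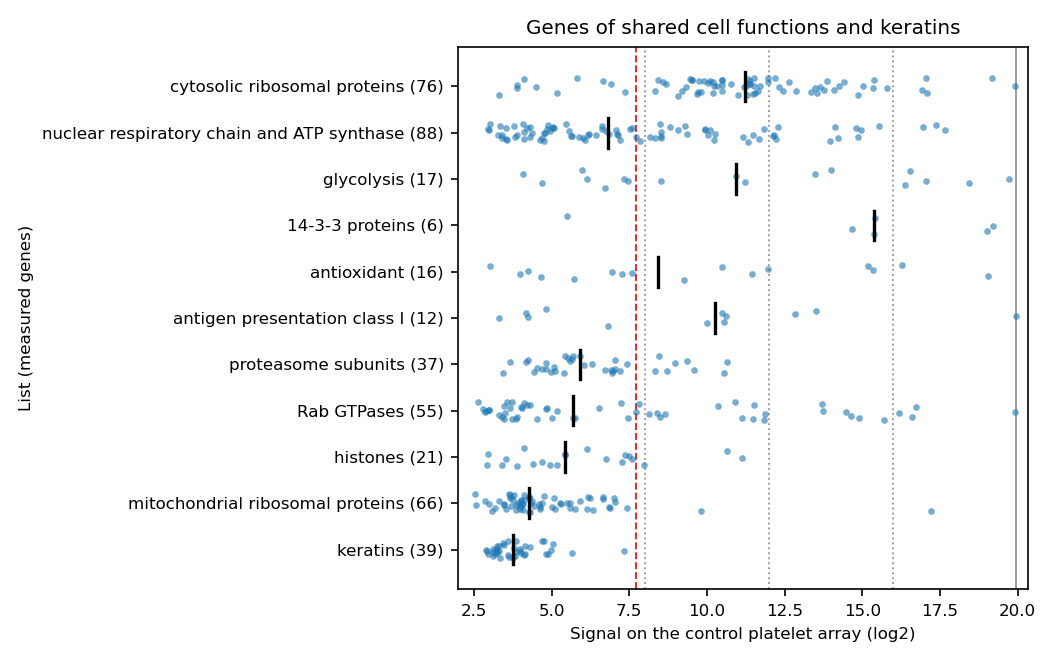
Log2 signal of each measured member of 10 lists of shared cell functions and of the keratin list on the control platelet array, 1 point per gene, shifted up or down at random. Black bars are list medians, dotted lines mark 8, 12 and 16, the grey line the ceiling and the red dashed line the background level of 7.70. Cytosolic ribosomal protein genes have 66 of 76 members at or above background, and mitochondrial ribosomal protein genes 2 of 66.

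The edges of the bands carry no gap. Adk read 16.007 and Ppia 15.985 on either side of 16. At 12 the neighbours were Pik3r1 at 12.001 and Prkaca at 11.999, and at 8 they were Pus10 at 8.002 and Tpp1 at 7.999. Ndufa12 at 7.699 and Arhgap15 at 7.698 lay on either side of background. In the RefSeq gene order of GRCr8, 10842 pairs of neighbouring protein-coding genes had both members measured. Of all named genes 1.63% read 16 or more, and whether high genes lie together was not tested. In 352 of the pairs 1 or both members read 16 or more, and in 5 pairs both did. These were Pf4 with Ppbp, Evi2a with Evi2b, Alox12 with Rnasek, Stim1 with Rhog, and Xdh with Ehd3, of which Xdh, Ehd3, Rhog, Rnasek and Evi2a lie outside the naming rule and are named after their values were seen.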

How the data were processed

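RNA from pooled control platelets of 5 rats carried a biotin label and a phycoerythrin stain, per the labels' protocols. The values in the authors' deposited matrix are log2 signals. The background correction, the summary of probes, the normalization and the genome build are not given in the sources used here. Values of the control column of the deposited matrix and of the series value table differed by at most 0.00005. The series value table also holds the control features. Features were classed as negative controls by their names.

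Gene names came from the platform annotation (15049 features with 1 symbol, 0 with several, 8139 with none). All 15037 gene IDs were found in RefSeq GRCr8, which changed 0 symbols. List members were matched by exact symbol. The highest feature was kept per gene, and no pseudocount was added. Background was the 95th percentile of 1153 negative control features. No statistical test was run, since 1 array gives no error, and precision is limited by the number of arrays.

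The members, bands and 34 lists were chosen with earlier results of these data known. Names were drawn from the genes at the ceiling, the 40 highest below it, all of them labelled in the plot of those genes, up to 3 genes on each side of each edge, and members of the lists. Names that are only locus numbers, 44 in all, were not named. Alternatives were other ways to treat genes with several features, other sets of features and other background levels. The assignment of genes to bands was checked on a simulated array. Python 3.11.15, numpy 2.4.6, pandas 2.3.3 and matplotlib 3.10.9 were used.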

Additional observations from a re-analysis of the deposited data

Results flagged for a closer look

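Features without a gene symbol, which the ranking leaves out, held signal as well. Of 8139 such features 888 lay at or above background, or 10.9%, against 13% of named genes, and 16 were at the ceiling. What these features stand for is not analysed here. Of the 399 features named as positive controls 134 lay at or above background, or 33.6%, and none was at the ceiling. The share of negative controls there, 5.03%, is set by the 95th percentile that defines background.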

How the results depend on the processing

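The band counts stayed within 1.5 times their values with the mean or the lowest of a gene's features, with the series value table, without ribosomal protein and globin genes and without names that are only locus numbers. Counted over all features, named or not, 31 were at the ceiling and 20553 under 8. Most other background levels moved counts by more than 1.5 times. With the 99th percentile of negative control features, 12.82, 586 genes lay at or above it. So did 102 members of the platelet and megakaryocyte lists, within 1.5 times of the 150 at the background of 7.70. Of the 8 lists of white blood cells and vessel cells, called the other lists here, 3 members did. The other lists leave out red cells. With the highest negative control feature, 18.97, 60 genes, 23 members of the platelet and megakaryocyte lists and 0 of the other lists did. Red-cell genes had 3 members there, and cytosolic ribosomal proteins and 14-3-3 proteins 2 each. The glycolysis, antioxidant, class I and Rab lists had 1 each. At 12.82 the counts of 20 of the 34 single lists moved by more than 1.5 times: cytosolic ribosomal proteins had 20 members there, the respiratory chain 10, red-cell genes 7, megakaryocyte transcription factors 3 and proteasome subunits 0. With the 95th percentile of olfactory receptor genes, 5.02, the counts were 5070 genes, 189 platelet list members and 39 members of the other lists. With the highest background feature sorted by GC content, 5.22, an alternative chosen after seeing the data, they were 4604, 188 and 34. The 90th percentile, 6.57, gave 2700 genes, 171 platelet list members and 14 of the others, all within 1.5 times, and moved 6 of the 34 single list counts further. In place of the median, the mean changed the summary of all 34 lists. By the mean, actin and myosin genes, 15.64, lay above adhesion receptors, 15.35, and the granule, eicosanoid and respiratory chain lists lay above background, at 10.11, 8.61 and 7.73. No paired analysis was possible because each group has 1 array. Values at the ceiling are tied and may be bounds. Signals below background are given as values, and differences among them are not read as differences in amount.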

Other observations

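Of the 230 genes from 16 to below the ceiling, 140 were in no list fixed here. Some of them have known platelet roles and were picked after their values were seen. Plek, pleckstrin, the main substrate of protein kinase C in platelets, read 18.37, as did Ptprj, a phosphatase that keeps Src kinases active in platelets. Fyb1 and Skap2, adaptors between receptors and integrins, read 17.85 and 17.72. Slc6a4, the transporter that fills platelets with serotonin, read 16.60, and Pde5a, the phosphodiesterase that breaks down cyclic GMP, read 18.70. Trpc6, a calcium channel, read 16.05.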
